A study of Mus musculus with 8 samples.

Results

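The genes of the DNA replication machinery were examined as a group across 3 populations of the blood stem cell lineage of mouse embryos. The group was drawn up as a list of 41 genes, of which 39 have a row in the deposited expression table of 33504 genes, and Gins2 and Cdt1 were not analysed here. RNA was measured by paired-end sequencing of poly(A)-selected libraries, all labelled as C57BL/6J. The pre-HSC libraries (n = 3) came from embryonic day 11.5 and hold precursors of hematopoietic stem cells, which arise from the endothelium of the large embryonic arteries. The FL-HSC libraries (n = 2) came from embryonic day 14.5, and FL stands for fetal liver, the organ in which stem cells expand in the embryo. The ex-HSC libraries (n = 3) carry the stage "in vitro" and were read as cells from the culture described in the protocols. In that culture, sorted embryonic cells were reaggregated with OP9 cells, a mouse bone marrow stromal line, for 4 days in medium that held SCF, Flt3L and IL-3 at 100 ng/ml each. Embryos came from wild-type females mated with wild-type males or with males that carry a green fluorescent protein reporter driven by Ly6a regulatory sequence, and the labels give neither which library had which father, nor the sort gates. They also do not say whether replicates were separate litters or cultures, and p-values therefore reflect no more than the scatter among these 8 libraries.

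Replication of the genome starts at origins, where the origin recognition complex and Cdc6 load the ring-shaped MCM helicase in an inactive form, and geminin (Gmnn) prevents loading a further time in the same cycle. Cdc45 and the GINS complex then join the MCM ring to form the active helicase, RPA coats the unwound strands, primase and DNA polymerases alpha, delta and epsilon copy them, and the clamp PCNA, loaded by RFC, holds polymerases on the DNA. Fen1 and Lig1 finish the lagging strand, and the chaperone CAF-1 deposits histones behind the fork. Most of these genes are transcribed in waves with the cell cycle, many through E2F factors, so that their RNA is high in cycling cells.

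The deposited values are FPKM, a measure of RNA level that corrects the number of sequenced fragments for transcript length and library size. All 39 genes were above 0 in every library, between 4.25 FPKM (Orc1) and 480 FPKM (Pcna), and all 39 passed the filter of at least 1 FPKM in at least 2 libraries that left 13720 genes for testing. Their summed FPKM was 1973.4, 1961.3 and 2048.9 for the pre-HSC libraries, 2639, 1993.1 and 2885.5 for ex-HSC, 4003.4 with 3409.8 for FL-HSC. Both FL-HSC libraries lay above the other 6, and ex-HSC replicate 2 lay within the pre-HSC range. With the median-of-ratios scaling described below, FL-HSC replicate 2 (2929.9) lay just below ex-HSC replicate 3 (2933), and ex-HSC replicate 2 (2713.5) lay above pre-HSC. As a share of all FPKM in the library, the 39 genes took 0.350%, 0.339% and 0.339% for pre-HSC, 0.363%, 0.360% and 0.393% for ex-HSC, 0.537% with 0.530% for FL-HSC. On this share the 3 populations did not overlap. In bulk samples such as these, fewer cells that express a gene and less RNA per cell cannot be told apart.

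The scale of ex-HSC replicate 2 stood apart, and counts of called genes are therefore given with and without a rescaling of the libraries. That library had 24992 genes above 0 FPKM, against 15622 to 18374 in the other 7, and it was the lowest of the 3 ex-HSC libraries for 38 of the 39 replication genes. Median-of-ratios scaling, which divides each library by the median ratio of its genes to their geometric mean over libraries, gave it a factor of 0.735, against 0.984 to 1.16 in the others. After that scaling it was the lowest ex-HSC library for 10 of the 39. The median log2 difference of all tested genes, as deposited, was -0.16 for ex-HSC against pre-HSC, 0.13 for FL-HSC against pre-HSC and 0.27 for FL-HSC against ex-HSC, and after scaling it was -0.01, -0.01 and -0.02. Markers of other cell types also differed between the populations. The summed FPKM of 12 endothelial markers was 3090 to 3400 for pre-HSC, 45.8 to 103 for ex-HSC, 230 to 241 for FL-HSC, and that of 12 stromal markers was 381 to 722, 14.6 to 31.3 and 8.02 to 13.3. Mast cell markers, 10 in number, summed to 2.51 to 10.8 for pre-HSC, 2190 to 4720 for ex-HSC, 55.7 to 77.6 for FL-HSC, and the 10 granulocyte markers to 30.6 to 46.6, 689 to 1010 and 511 to 618. All 14 blood stem and progenitor markers averaged 1 FPKM or more in each population. Their sums were 390 to 447 for pre-HSC, 324 to 613 for ex-HSC, 907 to 983 for FL-HSC. In the same order, the sums of 10 erythroid markers were 698 to 949, 172 to 186 and 206 to 320. Those of 7 macrophage markers were 177 to 1070, 119 to 171 and 38.8 to 257. For 10 hepatocyte markers they were 31.9 to 99.9, 20.1 to 27.7 and 23.6 to 76.7. The part of these marker differences in the results on replication genes was not tested.

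Between pre-HSC and FL-HSC, RNA of most of the replication machinery rose and none of it fell. Differences were tested on log2(FPKM + 1) with limma across all 13720 genes, and a gene was called at a Benjamini-Hochberg adjusted p under 0.05. As deposited, 27 of the 39 genes (69.2%) rose in FL-HSC, against 22.9% of all genes tested, and 0 fell, against 20.4%. Their median log2 fold change was 0.81, against 0.13 for all genes. With median-of-ratios scaling 29 (74.4%) rose, against 22.9%, and 0 fell, against 26.7%, with a median of 0.64. With equal totals, an alternative chosen after seeing the data that brings every library to the same total FPKM, 27 rose, against 20.1%, and 0 fell, against 28.4%. For 35 of the 39, both FL-HSC libraries lay above all 3 pre-HSC libraries, a pattern found in 39.4% of all genes, and for 0 did both lie below, against 28.7%. After median-of-ratios scaling these counts were 33 and 1, with no share over all genes computed. As deposited and at an unadjusted p under 0.05, limma gave 31 of the 39 as higher and 0 as lower. The counts for all 13720 genes were 3886 and 3229. The count fell to 17 without FL-HSC replicate 1, where 14.2% of all genes rose, and the median was then 0.75. That fit assumes that the lone FL-HSC library varies like those of the other groups. Of the 27 genes, 15 rose in each of the 27 settings tried, including every fit that left out 1 library. These were Mcm2, Mcm5, Mcm6, Mcm7, Cdc6, Gmnn, Rfc1, Pold1, Pole, Fen1, Lig1, Rpa1, Clspn, Usp1 and Chaf1a.

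The count for ex-HSC against pre-HSC depended on the scaling and on which libraries were fitted. As deposited, 8 of 39 genes (20.5%) rose, near the 15.7% of all genes tested, and 0 fell at adjusted p under 0.05, against 28.4% of all genes. With median-of-ratios scaling 25 (64.1%) rose, against 26.8% of all genes, and 1 fell, against 28.1%. At an unadjusted p under 0.05 in limma and as deposited, 14 were higher and 1 was lower, against 2611 and 4421 of all 13720 genes. Without ex-HSC replicate 2 and with no scaling, 21 rose, against 22.6% of all genes. With equal totals 10 rose, against 15.3%, and 7 fell, against 40.7%. The median of the 39 was 0.35 as deposited, 0.52 after median-of-ratios scaling and 0.15 with equal totals, above the medians of all genes, which were -0.16, -0.01 and -0.33. All 3 ex-HSC libraries lay above all pre-HSC libraries for 21 of the 39 genes, against 19.9% of all genes, and below them for 2, against 35.5%. After median-of-ratios scaling these counts were 28 and 2, with no share over all genes computed. Without pre-HSC replicate 1, 2 or 3, the number that rose as deposited was 2, 2 or 3. Without ex-HSC replicate 1 or 3 it was 3 each time. The share of all genes that rose in these fits was not computed, so the lower counts cannot be read as particular to the replication genes. Rfc2 alone rose in all 27 settings.

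Between ex-HSC and FL-HSC, 15 of 39 genes (38.5%) were higher in FL-HSC, against 24.1% of all genes, and 0 were lower, against 9.15%. At an unadjusted p under 0.05 in limma these counts were 21 and 0, against 4409 and 1600 of all 13720 genes. With median-of-ratios scaling 13 (33.3%) were higher, against 18.0%, and 2 lower, against 18.1%. The median was 0.53 as deposited and 0.18 after scaling, against 0.27 and -0.02 for all genes. With equal totals 21 were higher, against 28.9%, and 0 lower, against 11.5%. Both FL-HSC libraries lay above all ex-HSC libraries for 24 of the 39 genes, against 40.6% of all genes, and below them for 2, against 15.8%. After median-of-ratios scaling these counts were 16 and 6, with no share over all genes computed. The number of genes higher in FL-HSC was 9 without FL-HSC replicate 1, against 14.4% of all genes. The 8 genes higher in FL-HSC in each of the 27 settings were Mcm7, Cdc6, Pold1, Pole, Fen1, Lig1, Clspn and Chaf1a.

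**Figure D1:**
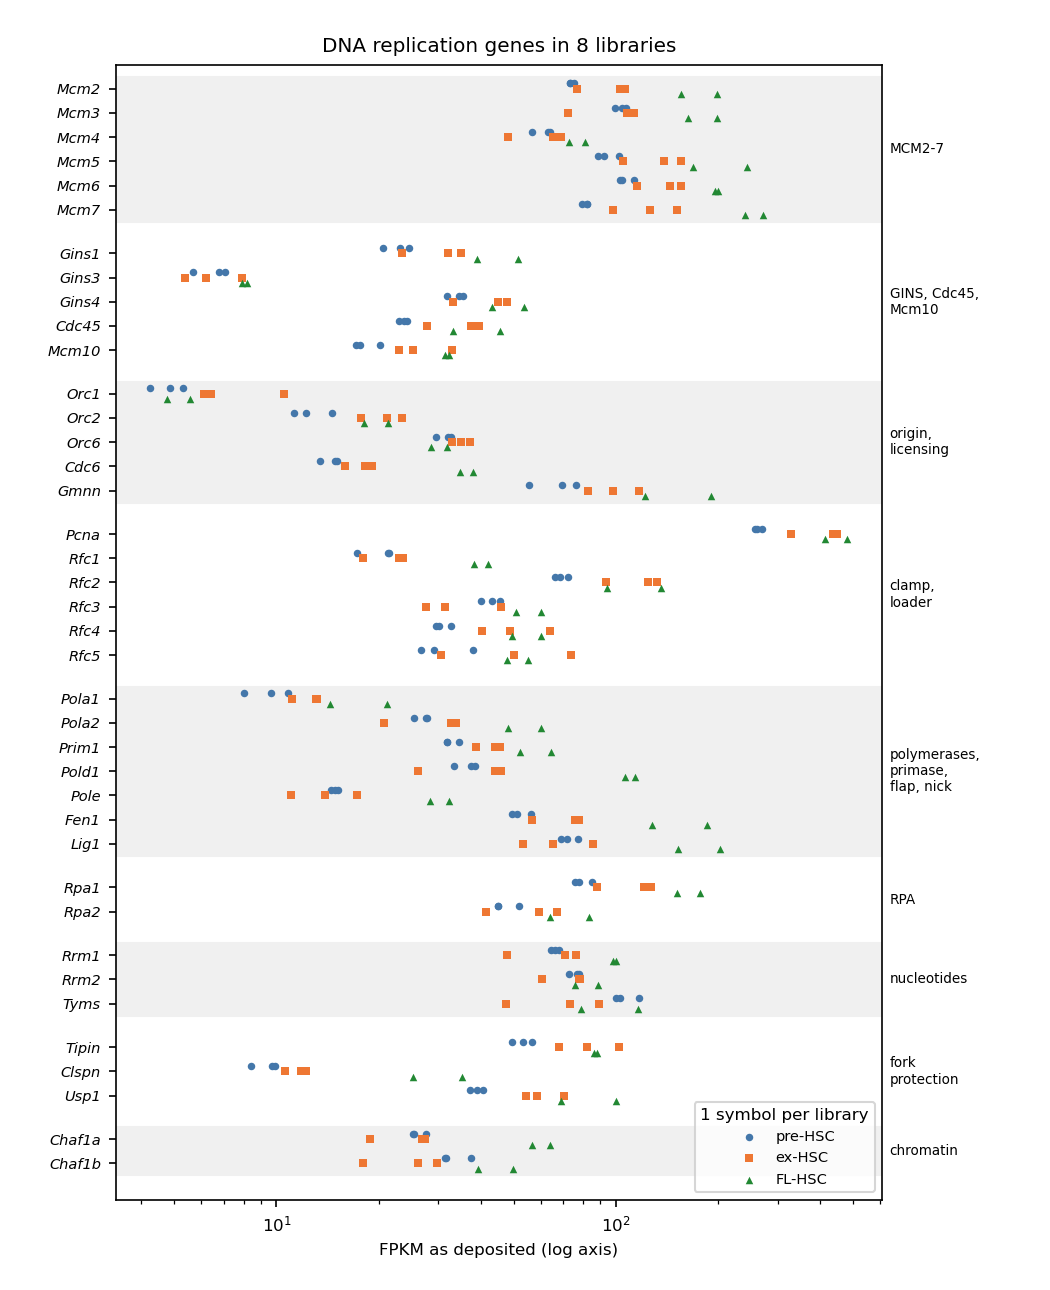
FPKM of the 39 replication genes in each of the 8 libraries, on a log axis, grouped by role, with 1 point per library coloured by population. For 35 of the 39 genes both FL-HSC points lie above all pre-HSC points.

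**Figure D2:**
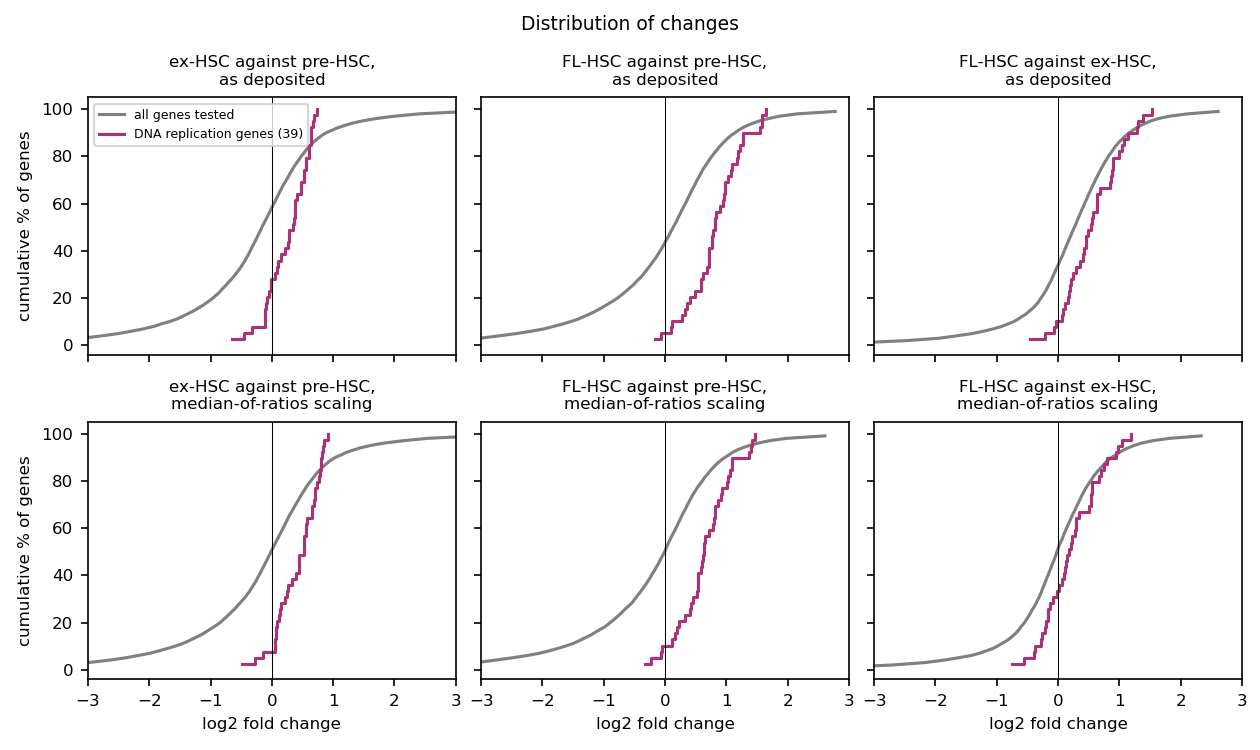
Cumulative distribution of log2 fold changes of the 39 replication genes beside that of all tested genes, in percent of genes, for each comparison as deposited and with median-of-ratios scaling. The replication genes had medians of 0.35, 0.81 and 0.53 as deposited, each above the median of all genes.

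In what follows, brackets give the ratio of mean FPKM as a fold, the log2 fold change ± SE on the log2(FPKM + 1) scale and the Benjamini-Hochberg (BH) adjusted p from limma, as deposited unless scaling is named. Scaling here means median of ratios with all 8 libraries. The counts of role groups below stand beside these shares of all genes tested that were called higher, as deposited and after scaling. They are 15.7% and 26.8% for ex-HSC against pre-HSC, 22.9% and 22.9% for FL-HSC against pre-HSC, and 24.1% and 18.0% for FL-HSC against ex-HSC. Of the 79 calls as deposited whose values follow, 77 were also called in the same direction after scaling, and the exceptions were Rfc3 and Rrm1 in FL-HSC against ex-HSC. In the MCM ring, 5 of 6 subunits rose. The 5 rose in FL-HSC against pre-HSC under both scalings, and Mcm4 passed in no comparison under either. Mcm7 was at 79.5, 82.1 and 82.1 FPKM for pre-HSC, 126, 98.2 and 151 for ex-HSC, 271 and 240 for FL-HSC. The 3 populations did not overlap. Mcm7 rose in FL-HSC against pre-HSC (3.15-fold, 1.64 ± 0.21, BH-adjusted p = 0.000113, and 1.47 ± 0.13, BH-adjusted p = 2.84e-05 after scaling) and was higher in FL-HSC than in ex-HSC (2.04-fold, 1.04 ± 0.21, BH-adjusted p = 0.00376). It also rose in ex-HSC (1.54-fold, 0.60 ± 0.19, BH-adjusted p = 0.0236), a call lost without pre-HSC replicate 1, 2 or 3 or ex-HSC replicate 1 or 3 (0.45 to 0.60, BH-adjusted p from 0.0582 to 0.0942). The exons of Mcm7 overlap those of Ap4m1 and Cops6 on the opposite strand, and whether the authors' counting used strand is not stated.

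Mcm2 was at 73, 73.4 and 75.2 FPKM for pre-HSC, 103, 76.8 and 106 for ex-HSC, 198 and 155 for FL-HSC. FL-HSC lay above both other populations, whereas ex-HSC replicate 2 was close to pre-HSC. Mcm2 rose in FL-HSC (2.39-fold, 1.23 ± 0.21, BH-adjusted p = 0.000736) and was higher there than in ex-HSC (1.85-fold, 0.88 ± 0.21, BH-adjusted p = 0.0083), the latter call lost without FL-HSC replicate 1 (0.71, BH-adjusted p = 0.0848). Mcm5 was at 88.7, 92.3 and 102 FPKM for pre-HSC, 139, 105 and 156 for ex-HSC, 243 and 169 for FL-HSC. As deposited the populations did not overlap, although FL-HSC replicate 2 was near the highest ex-HSC library. After scaling, FL-HSC replicate 2 (146) lay within the ex-HSC range (138 to 158). A rise was called in FL-HSC against pre-HSC (2.19-fold, 1.10 ± 0.23, BH-adjusted p = 0.0029) but not against ex-HSC (1.55-fold, 0.63 ± 0.23, BH-adjusted p = 0.0574). Mcm6 was at 113, 103 and 104 FPKM for pre-HSC, 144, 115 and 156 for ex-HSC, 196 and 200 for FL-HSC. Its FL-HSC libraries were close together and above all others, with a rise against pre-HSC (1.86-fold, 0.89 ± 0.19, BH-adjusted p = 0.00332) and none called against ex-HSC (1.43-fold, 0.53 ± 0.19, BH-adjusted p = 0.0533). In ex-HSC against pre-HSC, Mcm2, Mcm5 and Mcm6 were called after median-of-ratios scaling but not as deposited (0.52 ± 0.12, BH-adjusted p = 0.00494, 0.65 ± 0.15, BH-adjusted p = 0.00611 and 0.53 ± 0.09, BH-adjusted p = 0.00114). Mcm3 rose in FL-HSC against pre-HSC (1.74-fold, 0.79 ± 0.22, BH-adjusted p = 0.0153), a call lost without pre-HSC replicate 1 or FL-HSC replicate 1 (0.65 to 0.76, BH-adjusted p from 0.0523 to 0.119), while Mcm4 differed little (1.26-fold, 0.33 ± 0.21, BH-adjusted p = 0.221).

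Stretches upstream of the annotated start are printed for 4 genes that rose in FL-HSC in all settings and whose upstream window holds an E2F-like match. The sequences are from RefSeq on build GRCm38.p6, in which 31 of the 39 genes had an entry of 250 bases before to 50 bases after the start. Capitals mark the E2F-like letters (TTTCCCGC, TTTCGCGC, TTTGCCGC or TTTGGCGC, on either strand) and the letters CCAAT or their complement ATTGG. The Mcm7 stretch is chr5:138171885-138172068, minus strand, the Mcm5 stretch chr8:75109336-75109508, plus strand, the Mcm6 stretch chr1:128359706-128359835, minus strand, and the Cdc6 stretch chr11:98907993-98908040, plus strand. In Mcm5 and Mcm6 matches on the 2 strands overlap within 1 capital run.
Mcm7: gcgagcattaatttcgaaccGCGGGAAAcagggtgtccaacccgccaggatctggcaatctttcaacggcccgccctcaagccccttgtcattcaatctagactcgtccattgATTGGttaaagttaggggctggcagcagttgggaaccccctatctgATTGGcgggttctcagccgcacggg
Mcm5: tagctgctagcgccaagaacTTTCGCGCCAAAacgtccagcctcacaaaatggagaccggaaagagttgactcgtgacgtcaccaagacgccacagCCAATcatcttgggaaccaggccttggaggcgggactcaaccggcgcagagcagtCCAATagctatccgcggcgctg
Mcm6: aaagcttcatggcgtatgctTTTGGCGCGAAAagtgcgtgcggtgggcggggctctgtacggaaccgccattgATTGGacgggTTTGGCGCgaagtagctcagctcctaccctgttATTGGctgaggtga
Cdc6: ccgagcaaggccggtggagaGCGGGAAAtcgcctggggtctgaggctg
An E2F-like match was present in the window of 12 of the 31 genes (38.7%), against 4.66% of the 9698 tested genes with an entry and 2.60% of all 27025 genes with one. CCAAT was present in 22 (71.0%), against 42.9% and 41.1%, and the letters TTTGAA, the core of the cell cycle element CHR, in 4 (12.9%), against 14.3% and 20.2%. The 12 genes with an E2F-like match had a median log2 fold change of 1.00 in FL-HSC against pre-HSC, with a range from 0.09 to 1.64, and the 19 without one had a median of 0.76, with a range from -0.16 to 1.55, so the ranges overlapped nearly in full. Matched letters are a description of these windows and not evidence of binding.

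The factors that turn the MCM ring into an active helicase rose against pre-HSC in part and were not called between FL-HSC and ex-HSC. These are the GINS subunits Gins1, Gins3 and Gins4, Cdc45, and Mcm10, a factor needed for the helicase to start unwinding. In FL-HSC against pre-HSC 3 of the 5 rose under either scaling, and against ex-HSC 0 were called, with 1 of the 5 at an unadjusted p under 0.05 in limma. Gins1 was at 23.1, 20.6 and 24.6 FPKM for pre-HSC, 32.1, 23.5 and 34.9 for ex-HSC, 51.5 and 38.9 for FL-HSC. As deposited, FL-HSC lay above the other populations and ex-HSC overlapped pre-HSC. After scaling, FL-HSC replicate 2 (33.4) lay within the ex-HSC range (31.9 to 35.5), and ex-HSC lay above pre-HSC (20.7 to 24.1). Gins1 rose in FL-HSC against pre-HSC (1.99-fold, 0.95 ± 0.23, BH-adjusted p = 0.00684), a call lost without FL-HSC replicate 1 (0.75). Mcm10 was at 17.2, 17.6 and 20.2 FPKM for pre-HSC, 25.3, 22.9 and 32.9 for ex-HSC, 32.3 and 31.4 for FL-HSC. Its ex-HSC and FL-HSC libraries overlapped, and both lay above pre-HSC. Mcm10 rose over pre-HSC in FL-HSC (1.74-fold, 0.77 ± 0.21, BH-adjusted p = 0.0133) and in ex-HSC (1.47-fold, 0.52 ± 0.19, BH-adjusted p = 0.0437), the first call lost without pre-HSC replicate 1 or FL-HSC replicate 1 or 2 (0.72 to 0.79, BH-adjusted p from 0.0563 to 0.0738), the second lost without pre-HSC replicate 1, 2 or 3, ex-HSC replicate 1 or 3 or FL-HSC replicate 1 or 2 (0.38 to 0.59, BH-adjusted p from 0.059 to 0.169). Cdc45 was at 23, 24.3 and 23.7 FPKM for pre-HSC, 37.4, 27.8 and 39.4 for ex-HSC, 45.6 and 33.2 for FL-HSC, again with overlap of ex-HSC and FL-HSC. It rose in FL-HSC against pre-HSC (1.66-fold, 0.69 ± 0.22, BH-adjusted p = 0.027), a call lost without pre-HSC replicate 1, 2 or 3 or FL-HSC replicate 1 (0.47 to 0.71, BH-adjusted p from 0.0629 to 0.233), and in ex-HSC it passed after scaling (0.70 ± 0.14, BH-adjusted p = 0.00251) but not as deposited. The exons of Cdc45 overlap those of Ufd1 on the opposite strand. Gins4 was at 34.6, 31.8 and 35.5 FPKM for pre-HSC, 44.8, 33.1 and 47.9 for ex-HSC, 53.5 and 43.1 for FL-HSC, and it was called in ex-HSC against pre-HSC after scaling (0.45 ± 0.12, BH-adjusted p = 0.0102) and in no comparison as deposited. For Mcm10, Cdc45 and Gins4, the difference of FL-HSC from ex-HSC, which was called in neither case, turned from 0.24, 0.17 and 0.21 as deposited to -0.09, -0.17 and -0.13 after scaling. Over all 39 genes this difference turned sign for 9, of which 0 were called under either scaling. Gins3, between 5.36 and 8.17 FPKM, was called in no comparison under either scaling.

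Among the genes that mark and license origins, the loader Cdc6 and geminin rose in FL-HSC while Orc2 passed in FL-HSC as well and Orc1 and Orc6 did not. Cdc6 was at 14.9, 13.4 and 15.1 FPKM for pre-HSC, 18.2, 15.9 and 19.1 for ex-HSC, 38 and 34.7 for FL-HSC. The FL-HSC libraries stood well above all others, and ex-HSC lay just above pre-HSC. It rose in FL-HSC against pre-HSC (2.51-fold, 1.27 ± 0.19, BH-adjusted p = 0.000382) and against ex-HSC (2.05-fold, 1.00 ± 0.19, BH-adjusted p = 0.00316). Gmnn was at 69.2, 55.5 and 76.1 FPKM for pre-HSC, 97.9, 82.8 and 117 for ex-HSC, 191 and 122 for FL-HSC. As deposited the populations did not overlap, but FL-HSC replicate 2 was near the highest ex-HSC library. After scaling, FL-HSC replicate 2 (104) lay within the ex-HSC range (97.2 to 119). Gmnn rose in FL-HSC (2.34-fold, 1.19 ± 0.25, BH-adjusted p = 0.00299) and did not pass against ex-HSC (1.58-fold, 0.63 ± 0.25, BH-adjusted p = 0.0746). In ex-HSC against pre-HSC, 1 of the 5 genes of this group rose as deposited, against 15.7% of all genes. All 5 rose after scaling, against 26.8% of all genes.

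Orc2, a further subunit of the complex, was at 14.6, 12.2 and 11.3 FPKM for pre-HSC, 23.5, 17.8 and 21.2 for ex-HSC, 18.1 and 21.3 for FL-HSC. Here the ex-HSC and FL-HSC libraries overlapped as deposited, and both lay above pre-HSC. After scaling, ex-HSC (21.6 to 24.2) lay above FL-HSC (16 and 18.3), a difference that was not called. Orc2 rose in ex-HSC (1.64-fold, 0.67 ± 0.19, BH-adjusted p = 0.0154), a call lost without pre-HSC replicate 2 or 3 or ex-HSC replicate 1 (0.58 to 0.65, BH-adjusted p from 0.0533 to 0.0668), and in FL-HSC (1.55-fold, 0.59 ± 0.21, BH-adjusted p = 0.0439), a call lost without pre-HSC replicate 1, 2 or 3, ex-HSC replicate 3 or FL-HSC replicate 1 or 2 (0.48 to 0.71, BH-adjusted p from 0.0608 to 0.212). Orc1, another subunit of the complex, was the gene with the lowest level of the 39, at 4.25, 5.29 and 4.87 FPKM for pre-HSC, 6.4, 6.12 and 10.5 for ex-HSC, 5.58 and 4.76 for FL-HSC. Its ex-HSC libraries lay above all others. Orc1 was called after scaling but not as deposited, higher in ex-HSC than in pre-HSC (0.70 ± 0.20, BH-adjusted p = 0.0145) and lower in FL-HSC than in the cultured cells (-0.76 ± 0.22, BH-adjusted p = 0.0263). Orc6 stayed between 28.6 and 37.2 FPKM, and after scaling it likewise passed as higher in ex-HSC than in pre-HSC (0.32 ± 0.12, BH-adjusted p = 0.0498) and lower in FL-HSC than in the cultured cells (-0.55 ± 0.13, BH-adjusted p = 0.0134). As deposited neither passed between FL-HSC and ex-HSC (0.673-fold, -0.46 ± 0.26, BH-adjusted p = 0.195 and 0.861-fold, -0.21 ± 0.18, BH-adjusted p = 0.412). The exons of Orc1, Orc2 and Orc6 overlap those of Gm12743, Nif3l1 and Vps35 on the opposite strand.

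**Figure D3:**
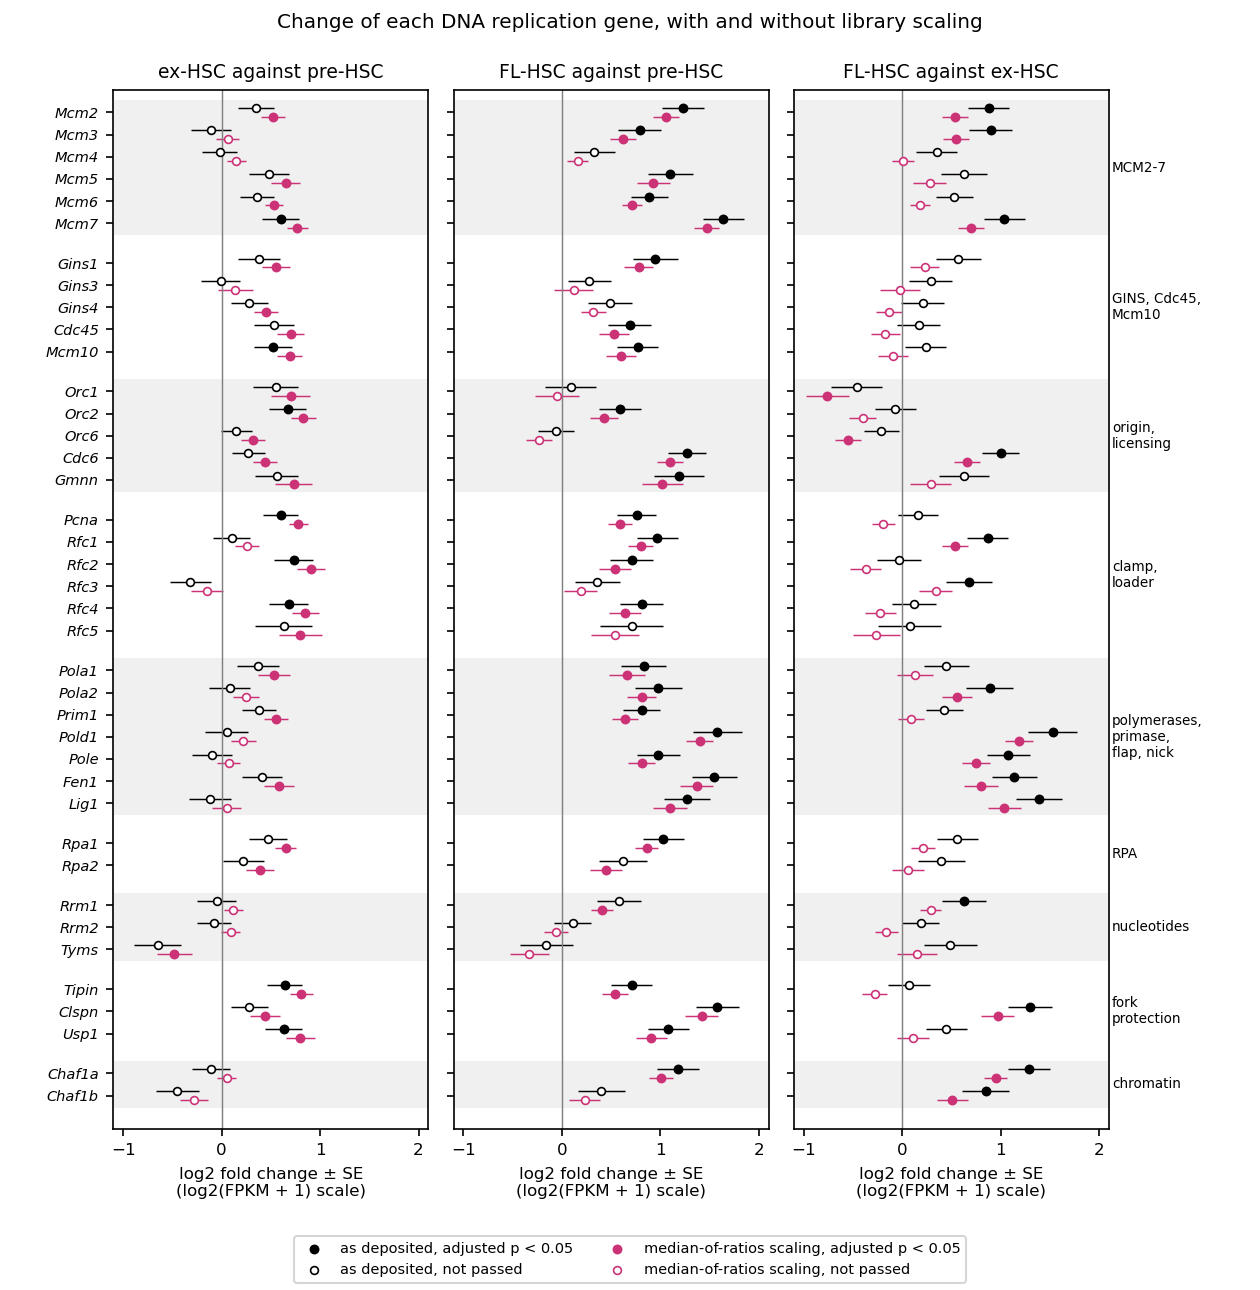
Log2 fold change with its standard error for each of the 39 replication genes in the 3 comparisons, as deposited and with median-of-ratios scaling, with filled points for adjusted p under 0.05. In FL-HSC against pre-HSC the 27 called genes all lie above 0, whereas in ex-HSC against pre-HSC the number called is 8 as deposited and 25 after scaling.

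Of the clamp and its 5 loader subunits, 3 rose in ex-HSC against pre-HSC as deposited and 4 after scaling. Of all genes, 15.7% and 26.8% rose there. Pcna, the clamp and the most abundant of the 39, was at 257, 261 and 270 FPKM for pre-HSC, 437, 327 and 448 for ex-HSC, 480 and 414 for FL-HSC. As deposited, the ex-HSC and FL-HSC libraries overlapped, and all lay above pre-HSC. After scaling, ex-HSC (434 to 455) lay above FL-HSC (426 and 356), a difference that was not called. Pcna rose in ex-HSC (1.54-fold, 0.60 ± 0.18, BH-adjusted p = 0.0165) and in FL-HSC (1.7-fold, 0.76 ± 0.20, BH-adjusted p = 0.00954), the first call lost without pre-HSC replicate 1 or 2 or ex-HSC replicate 1 or 3 (0.52 to 0.60, BH-adjusted p from 0.0623 to 0.0676), the second lost without FL-HSC replicate 1 (0.65, BH-adjusted p = 0.0752). The annotation names 2 Pcna pseudogenes, and how shared reads were assigned is not stated. Rfc2, a small subunit of the clamp loader, was at 68.6, 66.2 and 72.4 FPKM for pre-HSC, 124, 93.7 and 132 for ex-HSC, 136 and 94.1 for FL-HSC. As deposited, its ex-HSC and FL-HSC libraries overlapped. After scaling, Rfc2 was higher in all ex-HSC libraries (123 to 134) than in FL-HSC (121 and 80.9), a difference that was not called. It rose in ex-HSC (1.69-fold, 0.73 ± 0.20, BH-adjusted p = 0.0121), the only one of the 39 to do so in all settings, and in FL-HSC (1.67-fold, 0.71 ± 0.22, BH-adjusted p = 0.0255), a call lost without pre-HSC replicate 1 or 2 or FL-HSC replicate 1 (0.44 to 0.70, BH-adjusted p from 0.0701 to 0.247). Rfc4, another small subunit, was at 29.5, 30.1 and 32.7 FPKM for pre-HSC, 48.6, 40.2 and 63.9 for ex-HSC, 60.3 and 49.3 for FL-HSC, with overlap of ex-HSC and FL-HSC under both scalings. It rose in ex-HSC (1.65-fold, 0.68 ± 0.20, BH-adjusted p = 0.0177), a call lost without pre-HSC replicate 1 or 2 or ex-HSC replicate 3 (0.51 to 0.67, BH-adjusted p from 0.0573 to 0.0745), and in FL-HSC (1.78-fold, 0.81 ± 0.22, BH-adjusted p = 0.0143), a call lost without pre-HSC replicate 1 or FL-HSC replicate 1 (0.66 to 0.78, BH-adjusted p from 0.0505 to 0.118).

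Rfc1, the large subunit that directs the loader to primed DNA, followed another course, at 21.4, 21.3 and 17.3 FPKM for pre-HSC, 23.6, 18 and 23 for ex-HSC, 38.2 and 42 for FL-HSC. The ex-HSC libraries overlapped pre-HSC, and both FL-HSC libraries lay well above. Rfc1 rose in FL-HSC against pre-HSC (2-fold, 0.97 ± 0.21, BH-adjusted p = 0.00339) and was higher there than in ex-HSC (1.86-fold, 0.87 ± 0.21, BH-adjusted p = 0.0091), a call lost without FL-HSC replicate 2 (0.81, BH-adjusted p = 0.068). Of the remaining subunits, Rfc3 was higher in FL-HSC than in ex-HSC as deposited (1.59-fold, 0.68 ± 0.23, BH-adjusted p = 0.0447), a call lost without pre-HSC replicate 1, 2 or 3, ex-HSC replicate 1 or 2 or FL-HSC replicate 1 or 2 (0.53 to 0.81, BH-adjusted p from 0.0604 to 0.219), and Rfc5, which had the widest spread among pre-HSC and among ex-HSC libraries (coefficients of variation of 18.7% and 41.9%), was called in ex-HSC after scaling (0.80 ± 0.22, BH-adjusted p = 0.0128) and in no comparison as deposited. The exons of Rfc2, Rfc4 and Rfc5 overlap those of Lat2, Eif4a2 and Wsb2 on the opposite strand.

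The 7 listed genes for making and joining new strands all rose in FL-HSC against pre-HSC under both scalings, with medians of 0.98 and 0.81. Of these, 5 of 7 were higher in FL-HSC than in ex-HSC under both. With equal totals 6 of the 7 rose against pre-HSC. Of 19 further polymerase and fork subunits outside the 39, 10 rose against pre-HSC as deposited. The other 9, among them Pold4, Pole2 and Pole4, did not pass. In ex-HSC against pre-HSC 0 of the 7 passed in limma as deposited, with 1 at an unadjusted p under 0.05, and 3 after scaling. The shares of all genes that rose there were 15.7% and 26.8%. Pold1, the catalytic subunit of polymerase delta, which copies the lagging strand, was at 33.3, 37.3 and 38.4 FPKM for pre-HSC, 44, 26.1 and 45.8 for ex-HSC, 114 and 106 for FL-HSC, or 36.3 ± 2.66, 38.6 ± 10.9 and 110 ± 5.96 (mean ± SD). FL-HSC stood far above the other populations, which overlapped. Pold1 rose in FL-HSC against pre-HSC (3.03-fold, 1.58 ± 0.25, BH-adjusted p = 0.000497) and against ex-HSC (2.85-fold, 1.53 ± 0.25, BH-adjusted p = 0.00118), and did not pass between ex-HSC and pre-HSC (1.06-fold, 0.05 ± 0.22, BH-adjusted p = 0.882). Pole, the catalytic subunit of the leading strand polymerase epsilon, was at 14.9, 15.2 and 14.5 FPKM for pre-HSC, 13.9, 11 and 17.3 for ex-HSC, 28.4 and 32.2 for FL-HSC. Again only FL-HSC lay apart, with rises against pre-HSC (2.04-fold, 0.98 ± 0.22, BH-adjusted p = 0.00477) and ex-HSC (2.16-fold, 1.08 ± 0.22, BH-adjusted p = 0.00448).

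Fen1, the nuclease that removes the flaps ahead of each Okazaki fragment, was at 49.3, 51.2 and 56.2 FPKM for pre-HSC, 78.1, 56.5 and 75.9 for ex-HSC, 186 and 128 for FL-HSC. All populations were separate, with the largest distance below FL-HSC. It rose in FL-HSC against pre-HSC (3-fold, 1.55 ± 0.23, BH-adjusted p = 0.000303) and against ex-HSC (2.24-fold, 1.14 ± 0.23, BH-adjusted p = 0.00366), and in ex-HSC it passed after scaling (0.58 ± 0.15, BH-adjusted p = 0.00982) but not as deposited. Lig1, the ligase that seals the remaining nicks, was at 68.7, 71.7 and 77.3 FPKM for pre-HSC, 65.1, 53.1 and 85.4 for ex-HSC, 203 and 152 for FL-HSC. Its pre-HSC and ex-HSC libraries overlapped and FL-HSC lay above both, with rises against pre-HSC (2.45-fold, 1.27 ± 0.23, BH-adjusted p = 0.00129) and ex-HSC (2.62-fold, 1.39 ± 0.23, BH-adjusted p = 0.00138). Within polymerase alpha and primase, which start each strand, Pola1, Pola2 and Prim1 rose in FL-HSC against pre-HSC with log2 fold changes of 0.83, 0.98 and 0.81. The call of Pola1 was lost without pre-HSC replicate 3 or FL-HSC replicate 2 (0.56 to 0.72, BH-adjusted p from 0.0592 to 0.145), that of Pola2 lost without FL-HSC replicate 1 (0.82, BH-adjusted p = 0.073) and that of Prim1 lost without FL-HSC replicate 2 (0.66, BH-adjusted p = 0.0678). Pola2 was also higher in FL-HSC than in ex-HSC (1.86-fold, 0.89 ± 0.24, BH-adjusted p = 0.0162), a call lost without FL-HSC replicate 1 (0.73, BH-adjusted p = 0.119). Fen1, Lig1 and Pole share exon positions with opposite-strand genes (Tmem258 and Gm10143, Zswim9, and Gm15792).

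Of the 2 listed genes of single-strand binding, 1 rose in FL-HSC against pre-HSC as deposited and both did after scaling. Rpa3, a further subunit of RPA outside this list, was not called in FL-HSC against pre-HSC under either scaling. In ex-HSC against pre-HSC, Rpa3 was called higher after scaling but not as deposited. Rpa1, the largest subunit of RPA, was at 75.9, 77.6 and 85.1 FPKM for pre-HSC, 121, 88.1 and 127 for ex-HSC, 177 and 151 for FL-HSC. The populations did not overlap, and ex-HSC replicate 2 lay just above pre-HSC. Rpa1 rose in FL-HSC against pre-HSC (2.06-fold, 1.03 ± 0.21, BH-adjusted p = 0.00234) and did not pass against ex-HSC (1.46-fold, 0.56 ± 0.21, BH-adjusted p = 0.0599), and in ex-HSC it passed after scaling (0.65 ± 0.11, BH-adjusted p = 0.00104) but not as deposited. Rpa2, the middle subunit, ranged from 41.5 to 83.4 FPKM and passed after scaling but not as deposited, in ex-HSC (0.39 ± 0.14, BH-adjusted p = 0.0411) and in FL-HSC (0.45 ± 0.16, BH-adjusted p = 0.0394) against pre-HSC.

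Of the 3 listed genes of nucleotide supply, 0 passed against pre-HSC in limma as deposited, in either population. At an unadjusted p under 0.05, 1 of these 3 was lower in ex-HSC and 1 higher in FL-HSC. Another 10 genes of nucleotide supply outside this list were tested. As deposited, 5 of the 10 rose in FL-HSC against pre-HSC, against 22.9% of all genes. In ex-HSC 2 of the 10 rose, against 15.7% of all genes. After scaling 6 of the 10 rose in FL-HSC and 6 in ex-HSC, against 22.9% and 26.8% of all genes. Tyms, which makes thymidylate, was at 103, 100 and 117 FPKM for pre-HSC, 73.2, 47.5 and 89 for ex-HSC, 116 and 78.9 for FL-HSC. Every ex-HSC library lay below pre-HSC, and the FL-HSC libraries spanned both. Tyms was lower in ex-HSC than in pre-HSC after scaling (-0.48 ± 0.18, BH-adjusted p = 0.0489) and narrowly missed the threshold as deposited (0.654-fold, -0.65 ± 0.24, BH-adjusted p = 0.0512), and FL-HSC did not pass against pre-HSC (0.91-fold, -0.16 ± 0.27, BH-adjusted p = 0.668). The annotation names 1 Tyms pseudogene. Rrm1 and Rrm2 are the large and small subunits of ribonucleotide reductase, which makes deoxynucleotides. Rrm1 was at 64.3, 66.1 and 68.1 FPKM for pre-HSC, 70.9, 47.9 and 76.3 for ex-HSC, 100 and 98.3 for FL-HSC, with FL-HSC above the others, and was higher in FL-HSC than in ex-HSC as deposited (1.53-fold, 0.63 ± 0.22, BH-adjusted p = 0.0478), a call lost without pre-HSC replicate 1, 2 or 3, ex-HSC replicate 1 or FL-HSC replicate 1 or 2 (0.62 to 0.70, BH-adjusted p from 0.0568 to 0.163). Against pre-HSC it passed after scaling (0.41 ± 0.11, BH-adjusted p = 0.0156). Rrm2 was at 77, 78.1 and 72.8 FPKM for pre-HSC, 78.1, 60.7 and 78.4 for ex-HSC, 88.6 and 75.7 for FL-HSC, with all populations overlapping, and was called in no comparison under either scaling.

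Of the genes that protect the fork, Clspn, which encodes the checkpoint mediator claspin, had the largest ratio of mean FPKM of the 39 in FL-HSC against pre-HSC. It was at 9.67, 9.91 and 8.39 FPKM for pre-HSC, 12.2, 10.6 and 11.8 for ex-HSC, 25.3 and 35.3 for FL-HSC. FL-HSC lay far above, and ex-HSC slightly above, pre-HSC. Clspn rose in FL-HSC against pre-HSC (3.25-fold, 1.58 ± 0.22, BH-adjusted p = 0.000189) and against ex-HSC (2.63-fold, 1.30 ± 0.22, BH-adjusted p = 0.00136). Tipin, the partner of Timeless in the complex that steadies paused forks, was at 53.2, 56.5 and 49.3 FPKM for pre-HSC, 82, 68 and 102 for ex-HSC, 86.2 and 87.7 for FL-HSC. Its ex-HSC and FL-HSC libraries overlapped as deposited, and both lay above pre-HSC. After scaling, ex-HSC (81.4 to 104) lay above FL-HSC (76.5 and 75.4), a difference that was not called. Tipin rose in ex-HSC (1.59-fold, 0.64 ± 0.18, BH-adjusted p = 0.0163), a call lost without pre-HSC replicate 1 or 3 or ex-HSC replicate 3 (0.49 to 0.64, BH-adjusted p from 0.057 to 0.069), and in FL-HSC (1.64-fold, 0.71 ± 0.21, BH-adjusted p = 0.0181), a call lost without pre-HSC replicate 1 or 3 or FL-HSC replicate 1 or 2 (0.66 to 0.72, BH-adjusted p from 0.0554 to 0.0821). Usp1, which removes ubiquitin from PCNA, was at 37.2, 40.5 and 38.9 FPKM for pre-HSC, 70.5, 54.2 and 58.4 for ex-HSC, 69 and 100 for FL-HSC, with FL-HSC replicate 1 inside the ex-HSC range. Usp1 rose over pre-HSC in FL-HSC (2.18-fold, 1.08 ± 0.21, BH-adjusted p = 0.00222) and in ex-HSC (1.57-fold, 0.63 ± 0.19, BH-adjusted p = 0.0211), the second call lost without pre-HSC replicate 1, 2 or 3 or ex-HSC replicate 1 (0.52 to 0.66, BH-adjusted p from 0.053 to 0.0814).

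Both listed subunits of CAF-1, which places histones on new DNA, were higher in FL-HSC than in culture. Rbbp4, a further subunit outside the 39, was not called there as deposited and was lower in FL-HSC after scaling. Chaf1a, the large subunit, was at 27.5, 25.2 and 25.5 FPKM for pre-HSC, 26.9, 18.8 and 27.3 for ex-HSC, 64.1 and 56.5 for FL-HSC. FL-HSC lay far above the other populations, which overlapped, and Chaf1a rose against pre-HSC (2.32-fold, 1.18 ± 0.21, BH-adjusted p = 0.00127) and ex-HSC (2.48-fold, 1.29 ± 0.21, BH-adjusted p = 0.00136). Chaf1b was at 31.6, 31.3 and 37.3 FPKM for pre-HSC, 26.2, 18 and 29.8 for ex-HSC, 49.9 and 39.2 for FL-HSC, lowest in ex-HSC. It was higher in FL-HSC than in ex-HSC (1.81-fold, 0.85 ± 0.24, BH-adjusted p = 0.0214), a call lost without FL-HSC replicate 1 (0.68, BH-adjusted p = 0.147), and did not pass against pre-HSC (1.33-fold, 0.40 ± 0.24, BH-adjusted p = 0.204). The exons of Chaf1a overlap those of Ubxn6 on the opposite strand.

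Ratios of partner genes within a library take out its scale apart from the pseudocount, and several differed between the populations. They are given as log2 ratios of FPKM + 1 in each library, as a description with no test. Clspn to Tipin was -2.34, -2.40 and -2.42 in pre-HSC, -2.65, -2.57 and -3.01 for ex-HSC, -1.73 with -1.29 for FL-HSC. All 3 populations were separate, with ex-HSC lowest and FL-HSC highest. Rfc1 to Rfc2 was -1.63, -1.59 and -2 in pre-HSC, -2.35, -2.32 and -2.47 for ex-HSC, -1.81 with -1.15 for FL-HSC, so that ex-HSC lay below both embryonic populations. Chaf1b to Chaf1a was 0.19, 0.31 and 0.53 in pre-HSC, -0.04, -0.06 and 0.12 for ex-HSC, -0.36 with -0.52 for FL-HSC. It was highest in pre-HSC and lowest in FL-HSC, without overlap between the 3 populations. Mcm10 to Mcm2 was -2.03, -2 and -1.84 in pre-HSC, -1.99, -1.70 and -1.66 for ex-HSC, -2.58 with -2.26 for FL-HSC. Only FL-HSC stood apart in this ratio, and likewise in Rrm2 to Rrm1, which was 0.26, 0.24 and 0.09, then 0.14, 0.33 and 0.04, then -0.18 and -0.37. Pole to Pold1 was lower in both FL-HSC libraries (-1.97 and -1.69) than in the other 6 (-1.60 to -1.11), and Orc1 to Orc2 overlapped between all populations.

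**Figure D4:**
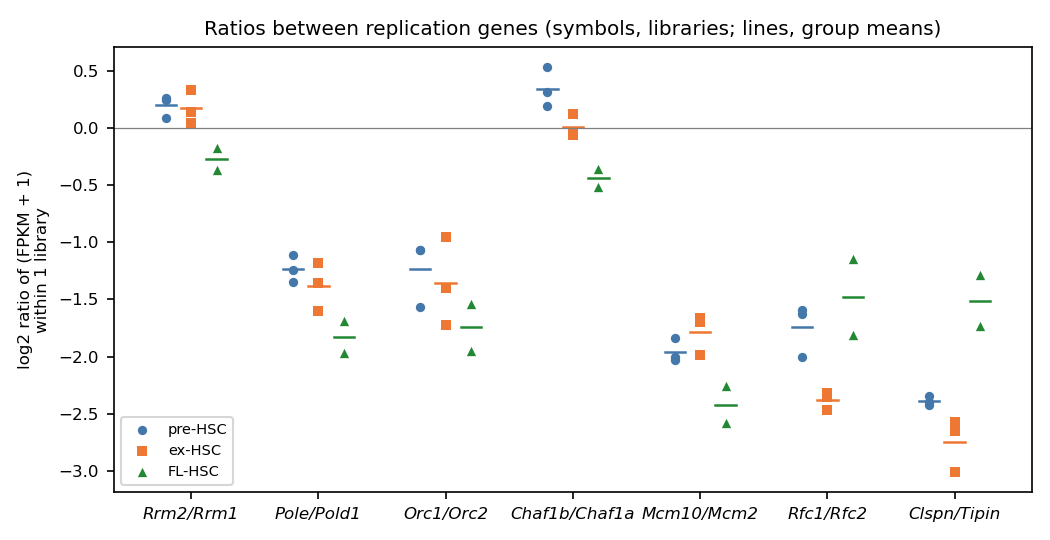
Log2 ratio of FPKM + 1 between partner genes, with lines at group means, with 1 point per library by population. The 3 populations are separate for Clspn to Tipin and for Chaf1b to Chaf1a, and Rfc1 to Rfc2 is lowest in all 3 ex-HSC libraries.

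A further 69 genes of the pathway, from lists of subunits, origin firing factors, nucleotide enzymes, chromatin factors and regulators of entry into S phase, were examined beside the 39, and 68 were tested. In FL-HSC against pre-HSC 30 rose and 1 fell as deposited (44.1% higher, against 22.9% of all genes), with a median of 0.62, and with median-of-ratios scaling 33 rose and 4 fell (48.5% higher, against 22.9%). In ex-HSC against pre-HSC 7 rose and 3 fell (10.3% higher, against 15.7%), and 22 and 3 after scaling (32.4% higher, against 26.8%). Against ex-HSC, FL-HSC had 27 higher and 1 lower (39.7% and 1.47%, against 24.1% and 9.15%), and 18 and 8 after scaling (26.5% and 11.8%, against 18.0% and 18.1%). The number higher in ex-HSC than in pre-HSC was 18 without ex-HSC replicate 2, where 22.6% of all genes rose. It was 2 without pre-HSC replicate 1 or ex-HSC replicate 3 and 4 without pre-HSC replicate 2 or ex-HSC replicate 1. For the fits with 2 or 4, the share of all genes was not computed. The number higher in FL-HSC than in ex-HSC was 14 or 17 when FL-HSC replicate 1 or 2 was left out. Pold2, the partner of Pold1 in polymerase delta, was at 64.2, 72.5 and 72.4 FPKM for pre-HSC, 101, 79.5 and 119 for ex-HSC, 334 and 279 for FL-HSC. Its populations were separate, with FL-HSC highest by far, and it rose in FL-HSC against pre-HSC (4.4-fold, 2.12 ± 0.21, BH-adjusted p = 1.89e-05) and ex-HSC (3.08-fold, 1.62 ± 0.21, BH-adjusted p = 0.000319). Other genes with a step at FL-HSC were Top1, the topoisomerase that relieves twist ahead of the fork (2.61-fold, 1.37 ± 0.19, BH-adjusted p = 0.000241), Cad, the first enzyme of pyrimidine synthesis (3.47-fold, 1.75 ± 0.24, BH-adjusted p = 0.000201), Orc5 (2.02-fold, 0.99 ± 0.24, BH-adjusted p = 0.00641), the origin firing factors Recql4 (2.62-fold, 1.19 ± 0.24, BH-adjusted p = 0.00219) and Ticrr (2.11-fold, 0.94 ± 0.26, BH-adjusted p = 0.0126), and Dnmt1, which copies DNA methylation (2.07-fold, 1.04 ± 0.24, BH-adjusted p = 0.00497). The call of Orc5 was lost without FL-HSC replicate 1 (0.81, BH-adjusted p = 0.0708) and that of Ticrr lost without pre-HSC replicate 1 or FL-HSC replicate 1 (0.89, BH-adjusted p from 0.0504 to 0.0664). Ssrp1, a subunit of the histone chaperone FACT, also rose in FL-HSC (1.84-fold, 0.87 ± 0.20, BH-adjusted p = 0.00564). Against ex-HSC, FL-HSC was higher in Top1, Cad, Orc5 and Dnmt1, with log2 fold changes of 1.22, 1.40, 1.27 and 1.23, and these calls held without any 1 library. It was also higher in Ticrr (2.3-fold, 1.07 ± 0.26, BH-adjusted p = 0.0093), a call lost without FL-HSC replicate 1 (1.02, BH-adjusted p = 0.0519), and in Recql4 (2.12-fold, 0.94 ± 0.24, BH-adjusted p = 0.0116), a call lost without FL-HSC replicate 1 (0.71, BH-adjusted p = 0.0995). The same held for Umps, which completes uridylate synthesis (1.89-fold, 0.90 ± 0.22, BH-adjusted p = 0.0114), a call lost without FL-HSC replicate 1 (0.76, BH-adjusted p = 0.0927), and for Uhrf1, which directs Dnmt1 to newly copied DNA (1.73-fold, 0.81 ± 0.22, BH-adjusted p = 0.0163), a call lost without FL-HSC replicate 1 or 2 (0.72 to 0.89, BH-adjusted p from 0.0538 to 0.101).

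In ex-HSC against pre-HSC, 7 of the 68 rose as deposited (10.3%, against 15.7% of all genes) and 3 fell. Skp2 and E2f7, which fell, are described in the next paragraph. Another 6 genes of these lists are named because they rose there. Hat1, which acetylates new histones, did so (1.79-fold, 0.82 ± 0.17, BH-adjusted p = 0.00276), as did Shmt1, an enzyme of folate metabolism (2.03-fold, 0.97 ± 0.23, BH-adjusted p = 0.00532), which also rose in FL-HSC (3.52-fold, 1.72 ± 0.25, BH-adjusted p = 0.000332). Rnaseh2b and Rnaseh2c, subunits of the nuclease that removes ribonucleotides from DNA, rose as well. For Rnaseh2b (1.63-fold, 0.67 ± 0.19, BH-adjusted p = 0.0139) the call was lost without pre-HSC replicate 1 or ex-HSC replicate 3 (0.56 to 0.59, BH-adjusted p from 0.0597 to 0.076), and for Rnaseh2c (1.46-fold, 0.53 ± 0.19, BH-adjusted p = 0.0414) it was lost without pre-HSC replicate 1, 2 or 3 or ex-HSC replicate 1 or 3 (0.40 to 0.56, BH-adjusted p from 0.0729 to 0.151). Dtymk, a kinase of thymidylate (1.52-fold, 0.58 ± 0.17, BH-adjusted p = 0.0182), had a call lost without pre-HSC replicate 1 or 2 or ex-HSC replicate 1 or 3 (0.47 to 0.60, BH-adjusted p from 0.0546 to 0.078), and Asf1a, a histone chaperone (1.57-fold, 0.62 ± 0.18, BH-adjusted p = 0.0177), a call lost without pre-HSC replicate 1 or 3 or ex-HSC replicate 3 (0.51 to 0.65, BH-adjusted p from 0.0565 to 0.0783). Of the other pathway genes named with values, Asf1a, E2f7, E2f8, Rb1, Recql4, Rnaseh2b, Rnaseh2c, Shmt1, Ssrp1, Ticrr and Umps have exons that overlap a gene on the opposite strand. Orc5 overlaps a pseudogene on its own strand.

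Regulators of entry into S phase moved in both directions. Skp2, which marks the cell cycle inhibitor Cdkn1b for degradation, was at 30.8, 30 and 26.4 FPKM for pre-HSC, 11.9, 8.36 and 9.44 for ex-HSC, 21.5 and 23.9 for FL-HSC. The ex-HSC libraries lay below all others, and Skp2 fell in ex-HSC (0.341-fold, -1.47 ± 0.19, BH-adjusted p = 8.81e-05) and was higher in FL-HSC than there (2.3-fold, 1.13 ± 0.21, BH-adjusted p = 0.0026). E2f7, a repressor of the E2F family, was at 10.5, 9.34 and 6.12 FPKM for pre-HSC, 4.32, 2.59 and 3.73 for ex-HSC, 9.66 and 13.2 for FL-HSC, and it also fell in ex-HSC (0.41-fold, -1.07 ± 0.25, BH-adjusted p = 0.00513). Its relative E2f8 rose in FL-HSC (2.68-fold, 1.31 ± 0.27, BH-adjusted p = 0.00253). Rb1, which restrains E2F factors, was at 8.9, 9.72 and 7.49 FPKM for pre-HSC, 8.89, 5.14 and 4.87 for ex-HSC, 1.1 and 0.264 for FL-HSC. Both FL-HSC libraries lay far below all others, and Rb1 fell in FL-HSC against pre-HSC (0.0787-fold, -2.57 ± 0.30, BH-adjusted p = 6.87e-05) and was lower than in ex-HSC (0.109-fold, -2.12 ± 0.30, BH-adjusted p = 0.000583).

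Genes of mitosis were examined as a list of 18 beside these. As deposited, 0 of the 18 rose in FL-HSC against pre-HSC, against 22.9% of all genes, and 0 fell, against 20.4% (median -0.05). At an unadjusted p under 0.05 in limma, 1 was higher and 2 lower, against 3886 and 3229 of all 13720 genes. After median-of-ratios scaling 1 rose (5.56%, against 22.9% of all genes) and 6 fell (33.3%, against 26.7%). When ex-HSC replicate 2 was left out, 3 rose and 3 fell, with no share over all genes computed. In ex-HSC against pre-HSC 0 rose and 4 fell (22.2% lower, against 28.4% of all genes), and 1 rose and 4 fell after scaling (against 28.1% lower). FL-HSC had 4 higher and 1 lower than ex-HSC (22.2% higher, against 24.1%), and 3 and 3 after scaling (16.7% each, against 18.0% and 18.1%). For FL-HSC against ex-HSC, these shares were near or below those of all genes. Without FL-HSC replicate 1, 0 were higher and 0 lower than in ex-HSC. In ex-HSC against pre-HSC 1 or 2 fell without any 1 of the pre-HSC replicates, and 1 without ex-HSC replicate 2. No share over all genes was computed for these falls. Their summed FPKM was 960 to 983 for pre-HSC, 544 to 927 for ex-HSC, 913 to 1120 for FL-HSC, so the range of FL-HSC held that of pre-HSC, whereas the summed levels of the 39 replication genes did not overlap between these populations.

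**Figure D5:**
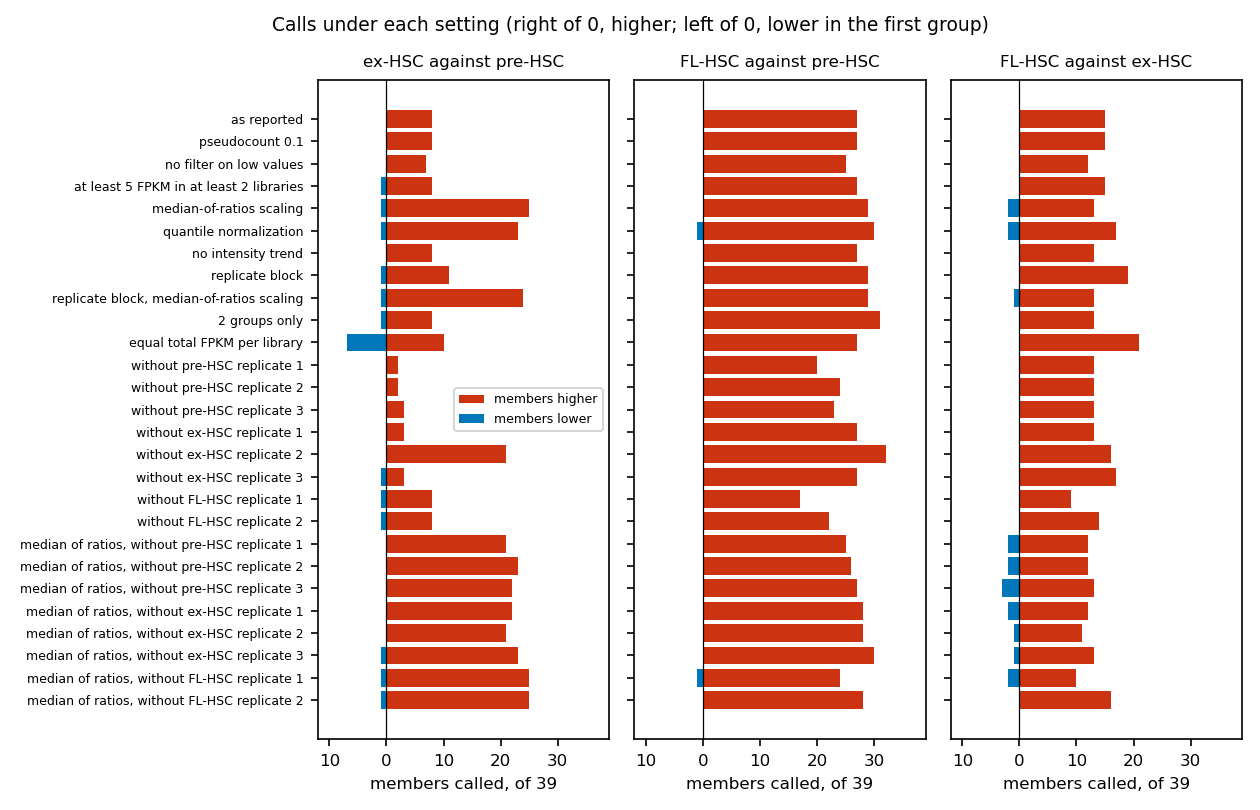
Number of the 39 replication genes called higher or lower in each comparison under each of the settings tried. The count for FL-HSC against pre-HSC stays between 17 and 32, whereas that for ex-HSC against pre-HSC runs from 2 to 25.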

How the data were processed

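The authors deposited a single table of FPKM by gene and library, as its header names them. The submitters' processing notes list the tools Cufflinks, edgeR, DESeq and featureCounts and the genome build mm9. Versions, and which tool made the FPKM, are not given in the sources used here. Of 33531 rows, 27 bear dates in place of symbols and were left out. The table holds no counts and whole reads could not be recovered, so depth is unknown.

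Values were taken as log2(FPKM + 1), which understates changes of low genes. Genes that reached 1 FPKM in 2 or more of the 8 libraries were tested with limma 3.58.1 in R 4.3.3, with a mean per group, an intensity trend and no replicate block, with Benjamini-Hochberg (BH) adjustment of the p-values over all 13720 genes. The fit was checked on simulated data with independent scatter per gene. No shift of library scale was simulated, so the check does not bear on such shifts. Rose and fell are used only of genes at an adjusted p under 0.05. Each fit was repeated after median-of-ratios scaling, over genes above 0 in all libraries. Alternatives were a pseudocount of 0.1, no filter, a filter of 5 FPKM, quantile normalization, no trend, a replicate block, fits of 2 groups, and fits that each lacked 1 library.

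The members and lists were chosen with earlier results of these data known. Genes described in full were those called in at least 1 comparison under both scalings, up to 4 per role group by smallest adjusted p, and the most abundant member of each of the 9 role groups. Of the other pathway genes, up to 2 per list and comparison with the smallest adjusted p were named. Values of Mcm3, Mcm4, Orc1, Orc6, Rfc3, Rfc5, Pola1, Pola2, Prim1, Rpa2, Rrm1, Rrm2 and Gins3 were added after they were seen. The calls of Rbbp4 and Rpa3 were also added after they were seen. Promoters came from RefSeq (GRCm38.p6) and exon overlaps from GENCODE on GRCm38, neither on the authors' build, and neither touched an FPKM value.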

Additional observations from a re-analysis of the deposited data

How the results depend on the processing

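Over 27 settings, counts moved with the scale and with which libraries were fitted, and the cause was not tested. Of the 39 genes in ex-HSC against pre-HSC, 25 rose under median-of-ratios scaling, 23 after quantile normalization and 24 with block and scaling together, and those that fell numbered 7 with equal totals and 1 with quantile normalization, with median-of-ratios scaling, with a filter of 5 FPKM, with the block alone or with scaling, and with 2 groups. In FL-HSC against pre-HSC 1 fell after quantile normalization, and FL-HSC was lower than ex-HSC for 2 genes with median-of-ratios scaling or quantile normalization and for 1 with block and scaling. Of the 68 other pathway genes, 22, 28 and 21 rose in ex-HSC with median-of-ratios scaling, after quantile normalization and with block and scaling, and 11 fell with equal totals. In FL-HSC against pre-HSC 4, 4 and 3 fell in these 3 settings, 2 with 2 groups and 6 with equal totals. Those higher in FL-HSC than in ex-HSC numbered 16 with block and scaling, and those lower 8, 6 and 5 in the 3 settings and 2 with equal totals.

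Among the genes and comparisons whose values the text gives, the direction turned with equal totals for Orc6 (-0.041) and Pold1 (-0.14) in ex-HSC against pre-HSC. In FL-HSC against ex-HSC it turned under median-of-ratios scaling, quantile normalization and block with scaling, in that order, for Mcm10 (-0.091, -0.068 and -0.017), Cdc45 (-0.17, -0.14 and -0.15) and Gins4 (-0.13, -0.093 and -0.097). None of these was called as deposited. Over all genes and comparisons with values in the text, 2360 results under an alternative kept both direction and call status, 194 gained a call, 163 lost one and 39 turned.

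Fits without 1 library, as deposited or with median-of-ratios scaling, gave 2 to 25 of the 39 higher and 0 to 1 lower in ex-HSC against pre-HSC, 17 to 32 and 0 to 1 in FL-HSC against pre-HSC, and 9 to 17 and 0 to 3 in FL-HSC against ex-HSC. For the other pathway genes the ranges were 2 to 28 and 2 to 5, 20 to 39 and 1 to 5, and 14 to 25 and 1 to 8. Log2 differences that turned ran from -0.40 to 0.39 (Cdc45), -0.30 to 0.36 (Gins4), -0.052 to 0.96 (Gmnn) and -0.21 to 0.39 (Mcm10) in FL-HSC against ex-HSC, -0.094 to 0.33 (Pold1) in ex-HSC against pre-HSC and -0.60 to 0.12 (Tyms) in FL-HSC against pre-HSC.

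With replicate number as a block, 11 rose and 1 fell, 29 rose and 0 fell, and 19 were higher and 0 lower, in the 3 comparisons in turn. Of 7 same-number pairs, 1 had a correlation of deviations from the group mean over 0.1 (-0.11 to 0.14). Of 6 pre-HSC and ex-HSC libraries, 1 correlated best with its own number. In groups of 2 or 3 libraries these deviations depend on each other, so the check cannot tell whether the numbers pair libraries. Depth is unknown, so no counting interval can be given, and 2 FL-HSC libraries limit the precision of both comparisons with that population.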
